A study of Mus musculus with 12 samples.

Results

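Mitochondria join by fusion and divide by fission, and 8 genes of this machinery were followed in mouse gastrocnemius, a mixed and mostly fast-twitch calf muscle: Mfn1, Mfn2, Opa1, Oma1, Yme1l1, Dnm1l, Fis1 and Mff. They were chosen by name, with earlier results of these data known. Each is represented by the probeset that carries its symbol alone and has the highest mean over the arrays. Each had exactly 1 such probeset, all 8 passed the filter on dim genes, and they stand among 22180 genes with a probeset and 13308 genes tested. The study compared wild-type mice with ERRα-null mice, in which Esrra, the gene of the nuclear receptor ERRα, is disrupted. Mice aged 2 to 3 months, labelled as FVB males, were either sedentary or had run to exhaustion on a treadmill 2 h before the muscle was taken. The 4 groups, sedentary wild type, sedentary ERRα-null, exercised wild type and exercised ERRα-null, had 3 arrays each, labelled as biological replicates, and all carried Affymetrix Mouse Gene 2.0 ST signals. How the null allele was made, and whether other tissues lack the receptor as well, is not given in the sources used here.

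The outer membranes of neighbouring mitochondria are fused by the mitofusins Mfn1 and Mfn2, and the inner membranes by Opa1. Opa1 is a dynamin-like GTPase that also holds cristae closed, and it is cut by the inner-membrane proteases Oma1 and Yme1l1. Fission is carried out by the dynamin-related GTPase Dnm1l, also called Drp1, which is recruited from the cytosol by outer-membrane proteins such as Mff, with Fis1 as a further outer-membrane member of the pathway. ERRα is an orphan nuclear receptor that acts with PGC-1 coactivators on genes of oxidative metabolism, and both mitofusin genes are known as targets of this pair in muscle.

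In RefSeq of assembly GRCm38.p6 the fusion genes lie on chromosomes 3 (Mfn1, 32529443 to 32579225), 4 (Mfn2, 147873586 to 147904909) and 16 (Opa1, 29579281 to 29663127). The genes of the proteases lie on chromosomes 4 (Oma1, 103311875 to 103371869) and 2 (Yme1l1, 23155442 to 23199260). The fission genes lie on chromosomes 16 (Dnm1l, 16312228 to 16359038), 5 (Fis1, 136953275 to 136966234) and 1 (Mff, 82724890 to 82752390). All are protein-coding, and the build behind the deposited values is not named, so these positions serve for orientation only.

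The RefSeq promoter table held 13 windows for the 8 genes, each with 250 bases before and 50 after an annotated start. The upstream bases of the 3 fusion GTPases are shown because their transcripts had the lowest values in ERRα-null muscle relative to wild type. Mfn1 is given on the plus strand (chr3:32529232-32529481), Mfn2 on the minus strand from its most upstream start (chr4:147904910-147905159) and Opa1 on the plus strand (chr16:29579084-29579333). Capitals mark CCGGAAG (the letters of an ETS factor site), TGACG (part of the cyclic AMP response element) and GCGCNNGCGC (the letters of an NRF1 site) on either strand, in which N is any base.
Mfn1: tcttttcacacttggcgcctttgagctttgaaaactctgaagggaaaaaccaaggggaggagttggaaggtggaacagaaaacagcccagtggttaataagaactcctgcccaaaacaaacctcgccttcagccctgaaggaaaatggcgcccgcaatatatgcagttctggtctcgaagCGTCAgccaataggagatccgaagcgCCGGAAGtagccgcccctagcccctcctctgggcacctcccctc
Mfn2: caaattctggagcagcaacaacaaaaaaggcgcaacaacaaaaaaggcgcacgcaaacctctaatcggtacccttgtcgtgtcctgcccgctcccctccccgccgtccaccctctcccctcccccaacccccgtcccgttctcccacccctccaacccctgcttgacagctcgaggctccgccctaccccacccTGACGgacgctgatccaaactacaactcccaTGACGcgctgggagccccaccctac
Opa1: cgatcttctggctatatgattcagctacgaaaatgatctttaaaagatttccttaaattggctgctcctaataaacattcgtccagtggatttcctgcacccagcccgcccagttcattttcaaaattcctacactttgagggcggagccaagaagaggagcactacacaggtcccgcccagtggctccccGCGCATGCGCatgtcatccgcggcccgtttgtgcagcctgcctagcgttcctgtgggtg

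The letters that estrogen-related receptors bind were searched on both strands of all windows. The extended site TNAAGGTCA was in 0 of the 13 windows of these genes and in 1.28% of the 32851 windows of all genes. Its core AAGGTCA was in 0 of 13 and in 4.72% of all windows, and the shorter AGGTCA, which lies within both, in 0 of 13 and in 16.3%. No match says only that these letters are not in these windows. The ETS letters were in 5 of the 13 windows, those of Mfn1, Yme1l1, Dnm1l and Fis1, and in 8.86% of all windows. The cyclic AMP letters were in 8 of the 13, of Mfn1, Mfn2, Oma1, Yme1l1 and Mff, and in 20.8% of all windows. The NRF1 letters were in 2 of the 13, of Opa1 and Oma1, and in 6.23%. In Mfn1 the ETS letters lie at positions −44 to −38 from the start and the cyclic AMP letters at −70 to −66, with no overlap. The ETS, cyclic AMP and NRF1 letters were added after the receptor letters had been searched, windows of one gene can overlap, and a match is a description of the sequence.

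The libraries were checked against their labels before the results. Esrra ran from 7.41 to 7.63 (log2) on the 6 wild-type arrays and from 6.55 to 6.89 on the 6 ERRα-null arrays, without overlap (log2 −0.82 at rest and −0.78 after exercise, limma adjusted p = 0.0238 and 0.0227). The Esrra call at rest was lost with the replicate number as block (adjusted p = 0.059 over all arrays and 0.491 on the sedentary ones). It was lost there too with the slow fibre score described below as covariate (limma adjusted p = 0.155). Without each of the 12 arrays in turn, the calls held in 7 of 12 fits at rest and 8 of 12 after exercise (adjusted p up to 0.139 and 0.0904). Both were lost on fitting the compared arrays alone (0.177 and 0.0638) and on leaving out the 3 arrays of female profile described next (−0.82 and −0.70, adjusted p = 0.101 and 0.397). Which part of the transcript the probeset reads, relative to the deleted part, is not given in the sources used here. The source name contradicts the titles on exercise for 2 groups (ERRα-null at rest, wild type after running), and the titles were used. The summed linear signal of 7 heat shock genes was 4000 to 4500 on the 6 arrays titled sedentary and 6430 to 9690 on the 6 titled exercised. Among the exercised arrays it was 8780 to 9690 in wild type and 6430 to 7770 in ERRα-null muscle, without overlap. The 8 markers of fast skeletal muscle summed to 70300 to 76000 on every array. Xist was at 7.82 to 7.90 and the Y-linked Eif2s3y at 4.97 to 5.20 on exercised wild type replicate 3 and exercised ERRα-null replicates 2 and 3, which have a female profile although all mice are labelled male. On the other 9 arrays Xist was at most 4.30. Liver, adipocyte and B cell transcripts differed between arrays of one group. In sedentary wild type Alb ran from 6.46 to 12.82 and Ucp1 from 4.67 to 10.93. Cd79a ran from 4.96 to 8.95 in sedentary ERRα-null muscle. In bulk muscle, fewer cells of a type and less RNA per cell cannot be told apart, and levels are relative to the bulk of transcripts because the arrays were normalized to each other.

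Among the fusion genes, Mfn1 stood at about 10 on the log2 scale in wild-type muscle and lower in ERRα-null muscle on every array. In sedentary wild-type mice its log2 level was 10.07, 9.92 and 9.82 in replicates 1 to 3, and in sedentary ERRα-null mice 9.27, 9.48 and 9.39. After exercise it was 9.87, 10.07 and 10.02 in wild type and 9.15, 9.18 and 9.34 in ERRα-null muscle. The lowest wild-type array, sedentary replicate 3, was above the highest ERRα-null array, sedentary replicate 2, so the genotypes did not overlap over both states together, as for 1.01% of all genes in this direction.

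Averaged over both states, Mfn1 fell to 0.633-fold of wild type (95% interval 0.575 to 0.698; log2 −0.66 ± 0.06 SE, limma adjusted p = 0.00121), the third smallest p of the 13308 genes. After exercise it fell to 0.589-fold (0.514 to 0.676; log2 −0.76 ± 0.09, limma adjusted p = 0.0151), with the second smallest p. On the exercised arrays alone its limma adjusted p was 0.047, or 0.0171 with the replicate number as block. On the sedentary arrays alone Mfn1 had a limma adjusted p of 0.225, or 0.649 with that block. At rest its level was 0.681-fold of wild type (0.594 to 0.781; log2 −0.55 ± 0.09), and with a limma adjusted p of 0.0515 it did not pass the threshold of 0.05. The difference of both values, an interaction of −0.21 ± 0.13, did not pass either (limma adjusted p = 0.9995, unadjusted p = 0.13), so the fall is not shown to differ between rest and exercise.

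The 3 arrays of female profile are all from exercised mice. Without them, exercised ERRα-null muscle has 1 array, taken to have the spread of the remaining groups, and Mfn1 lay at −0.82 after exercise (adjusted p = 0.173) and at −0.69 on average (adjusted p = 0.0509). With the female profile as a covariate on all arrays it lay at −0.79 (adjusted p = 0.0144) and −0.67 (adjusted p = 0.00178). Without any single one of the 12 arrays the value after exercise ran from −0.82 to −0.72 (adjusted p from 0.00863 to 0.0403) and the average from −0.69 to −0.63 (adjusted p from 0.00154 to 0.00825), and every one of these passed.

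Of the marker lists, the B cell markers differed between genotypes without overlap in both states. The 4 measured B cell markers summed to 3240 to 4340 in sedentary wild type and 1160 to 2560 in sedentary ERRα-null muscle, and to 2620 to 4500 and 368 to 1160 after exercise. This was carried by the immunoglobulin chain Ighm (11.31 to 12.11 in wild type, 8.13 to 10.73 in ERRα-null), whereas Cd79a, Cd79b and Ms4a1 overlapped between genotypes. The 9 markers of slow and oxidative fibres, called slow fibre markers here, include Myh2, which is not particular to slow fibres. They summed to 10600 to 14300 in sedentary wild type and 13200 to 17100 in sedentary ERRα-null muscle. After exercise they summed to 10400 to 14900 and 12300 to 14700, and the sums overlapped in both states. At rest Myh7 (9.81 to 10.72 and 10.78 to 11.29) and Myoz2 (10.25 to 10.52 and 10.59 to 11.05) did not overlap, and the other markers of this list did. The 7 liver markers (464 to 16900 and 415 to 6950 at rest) and the 6 adipocyte markers (2000 to 9800 and 2370 to 5730 at rest) overlapped as well. The scores used as covariates are means of centred log2 values, in which each marker counts alike. Unlike the sum, the B cell score overlapped between genotypes at rest, with its highest value, 2.05, on sedentary ERRα-null replicate 1. With liver, adipocyte and B cell scores as covariates Mfn1 lay at −0.62 at rest (adjusted p = 0.0299), −0.79 after exercise (adjusted p = 0.00856) and −0.70 on average (adjusted p = 0.00169). What part Ighm has in the Mfn1 difference was not tested. With the slow fibre score as covariate Mfn1 lay at −0.69 (adjusted p = 0.0702) at rest, −0.81 after exercise (adjusted p = 0.00507) and −0.75 on average (adjusted p = 0.00225).

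**Figure D1:**
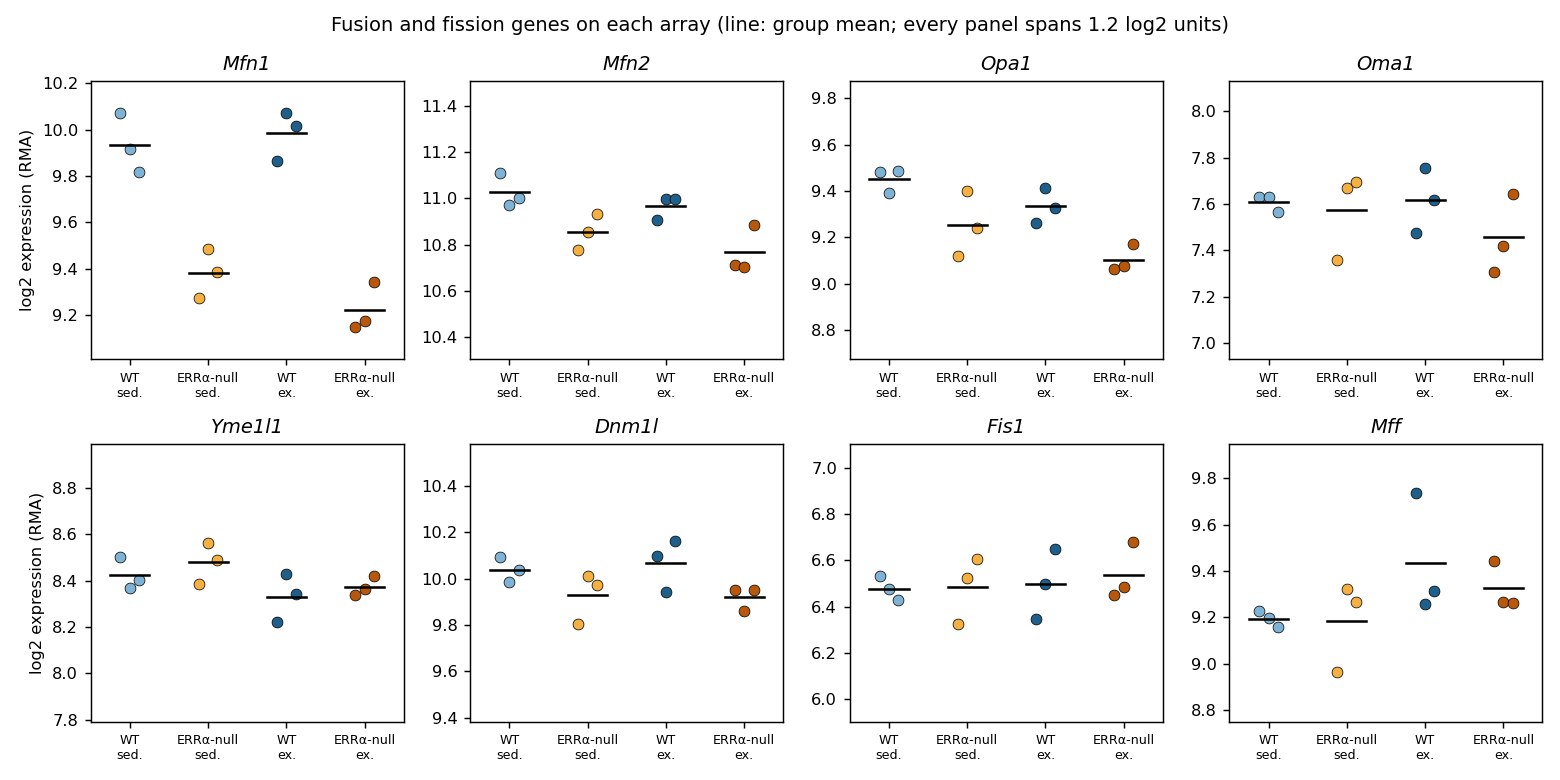
Log2 expression (RMA) of the 8 genes on each of the 12 arrays, with points for replicates 1 to 3 from left to right in each group, a line at the group mean, and 1.2 log2 units in every panel. Mfn1 is at 9.82 to 10.07 on the wild-type arrays and at 9.15 to 9.48 on the ERRα-null arrays, and the other 7 genes differ less between genotypes.

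Mfn2, the second mitofusin, had a smaller difference in the same direction. Its log2 level was 11.11, 10.97 and 11.00 in sedentary wild type, 10.78, 10.86 and 10.93 in sedentary ERRα-null, 10.91, 11.00 and 11.00 in exercised wild type, and 10.71, 10.70 and 10.88 in exercised ERRα-null muscle. Within each state every wild-type array was above every ERRα-null array. Averaged over states Mfn2 was at 0.879-fold of wild type (0.817 to 0.946; log2 −0.19 ± 0.05), which did not pass over all genes (limma adjusted p = 0.0936). In the same fit of all 12 arrays the difference was −0.17 ± 0.07 between the sedentary groups (adjusted p = 0.526) and −0.20 ± 0.07 between the exercised groups (adjusted p = 0.292). With the slow fibre score as covariate the averaged value was −0.26 and passed (adjusted p = 0.0408).

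Opa1, which fuses inner membranes, had a level of 9.48, 9.39 and 9.49 in sedentary wild type and 9.12, 9.40 and 9.24 in sedentary ERRα-null muscle. After exercise it was at 9.26, 9.41 and 9.33 in wild type and at 9.06, 9.08 and 9.17 in ERRα-null muscle. The genotypes were apart on all exercised arrays, and at rest the ERRα-null replicate 2 lay within the wild-type range. The averaged difference was 0.861-fold (0.791 to 0.937; log2 −0.22 ± 0.06, limma adjusted p = 0.0936) and did not pass, nor did that at rest (−0.20, adjusted p = 0.521) or after exercise (−0.23, adjusted p = 0.295). For Mfn2 and Opa1, and for the fission gene Dnm1l below, the intervals of the averaged difference lie below 1-fold. The p adjusted over all genes does not pass for any of them.

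The proteases that cut Opa1 had smaller values. Oma1, the stress-activated protease, was at 7.63, 7.63 and 7.56 in sedentary wild type, 7.36, 7.67 and 7.69 in sedentary ERRα-null, 7.47, 7.76 and 7.62 in exercised wild type, and 7.30, 7.42 and 7.64 in exercised ERRα-null muscle. The groups overlapped in both states, and the averaged genotype difference was −0.10 ± 0.08 (0.934-fold, 0.826 to 1.06; limma adjusted p = 0.728). Yme1l1, the constitutive protease, was at 8.50, 8.37 and 8.40, then 8.39, 8.56 and 8.49, then 8.22, 8.43 and 8.34, and 8.34, 8.37 and 8.42 in the same order of groups. It had the largest averaged value in the other direction among the 8 genes, 0.05 ± 0.06 (1.03-fold, 0.951 to 1.12; limma adjusted p = 0.819), and its groups overlapped.

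On the fission side, none of the 3 genes passed for genotype. Dnm1l, the GTPase that constricts the organelle, was at 10.09, 9.99 and 10.04 in sedentary wild type, 9.80, 10.01 and 9.97 in sedentary ERRα-null, 10.10, 9.94 and 10.16 in exercised wild type, and 9.95, 9.86 and 9.95 in exercised ERRα-null muscle. The genotypes overlapped in both states, and the averaged difference was −0.13 ± 0.05 (0.914-fold, 0.843 to 0.992; limma adjusted p = 0.343). Fis1 was the dimmest of the 8 probesets, with 6.53, 6.47 and 6.43, then 6.33, 6.53 and 6.60, then 6.35, 6.50 and 6.65, and 6.45, 6.48 and 6.68 in the same order. Its averaged difference was 0.02 ± 0.07 (1.02-fold, 0.908 to 1.14; limma adjusted p = 0.937). Mff, the receptor for Dnm1l on the outer membrane, was at 9.23, 9.20 and 9.16, then 8.96, 9.32 and 9.27, then 9.74, 9.26 and 9.31, and 9.45, 9.27 and 9.26, with an averaged genotype difference of −0.06 ± 0.09 (0.959-fold, 0.838 to 1.10; limma adjusted p = 0.862).

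Counted over the 8 genes, limma called 1 (Mfn1) lower on average, where it called 0.999% of all tested genes lower. After exercise it called 1 (Mfn1) lower, where it called 0.286% of tested genes lower. At rest limma called 0 of 8 where it called 0.0827% of all genes, and 3 of 8 (Mfn1, Mfn2 and Opa1) had an unadjusted p under 0.05, against 8.22% of all genes. The same 3 had one after exercise, against 10.4%. On average 4 of 8 had one (these 3 and Dnm1l), against 12.4%. Groups without overlap and lower in ERRα-null muscle numbered 2 of 8 at rest (6.53% of all genes) and 3 of 8 after exercise (9.31%). The median of the 8 was −0.07 at rest, −0.16 after exercise and −0.11 on average, and the median of all tested genes lay between −0.0012 and 0.0013. Of the 8, 6 lay below wild type on average, as did 49.8% of all genes.

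**Figure D2:**
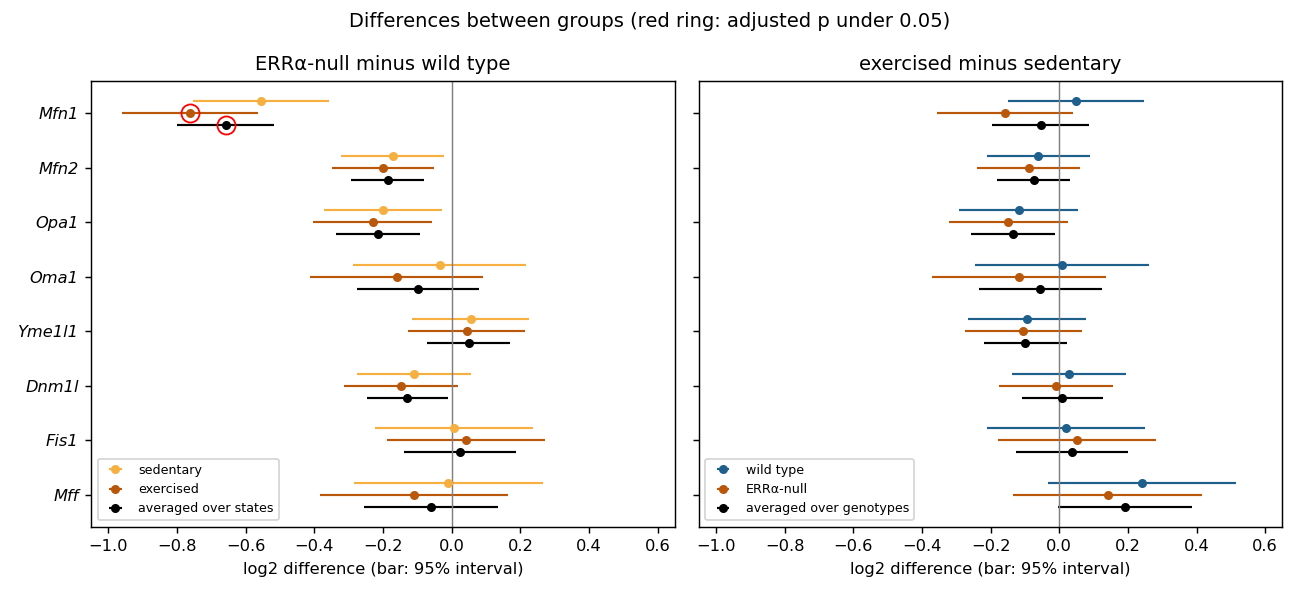
Log2 differences of the 8 genes with 95% intervals of the model, ERRα-null minus wild type on the left and exercised minus sedentary on the right, for each stratum and averaged (n = 3 arrays per group). Red rings, for adjusted p under 0.05, are on Mfn1 after exercise (−0.76) and on average (−0.66) and on no other value.

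Mfn1 was singled out after its values were seen, so its distance from the other genes is given as a description with no test. Within arrays, its genotype difference exceeded that of Mfn2 by −0.47 and that of Opa1 by −0.44 (log2), with a spread of 0.07 and 0.08 (SD within groups, 12 arrays). Against Dnm1l it was −0.53 and against Mff −0.60. The Mfn1 value relative to the other gene did not overlap between genotypes for 6 of the 7 other members, the exception being Mff. Mfn1 on its own did not overlap either, so this count is not a separate result. Relative to the mean of 31 measured complex I subunits, which make up the first respiratory enzyme, Mfn1 was lower in ERRα-null muscle by a further −0.36 (SD 0.10), without overlap. All 31 subunits lay below wild type on average, with a median of −0.31 and a lowest value of −0.52 (Ndufa8), and none was as low as Mfn1.

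The means of the fusion GTPases (Mfn1, Mfn2 and Opa1) and of the fission genes (Dnm1l, Fis1 and Mff), each gene centred on its own mean, were set side by side on every array. Fusion minus fission was 0.25, 0.19 and 0.21 in sedentary wild type and 0.01, −0.06 and −0.11 in sedentary ERRα-null replicates 1 to 3. After exercise it was −0.06, 0.25 and 0.06 in wild type and −0.32, −0.23 and −0.18 in ERRα-null muscle. The genotypes were apart within each state. Exercised wild type replicate 1 was the lowest wild-type array and fell among the sedentary ERRα-null values, and it also held the highest Mff value of all arrays (9.74). The fusion mean alone ran from 0.07 to 0.28 on wild-type arrays and from −0.30 to −0.03 on ERRα-null arrays, and the fission mean overlapped (−0.05 to 0.14 and −0.23 to 0.04). Mfn1 has the largest part in the fusion mean, with an averaged genotype difference of −0.66 against −0.19 for Mfn2 and −0.22 for Opa1, of which only that of Mfn1 passed.

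Exercise moved none of the 8 genes past the threshold at 2 h. Limma called 0 of 8 in wild type, where 3.43% of all tested genes were called, 0 of 8 in ERRα-null muscle (0.639% of all genes) and 0 of 8 averaged over genotypes (6.57%). At an unadjusted p under 0.05 the counts were 0, 0 and 1 of 8, where 16.1%, 13.1% and 22.5% of all genes had one. Mfn1 was at 1.03-fold of the sedentary level in wild type (0.902 to 1.19; log2 0.05 ± 0.09) and at 0.896-fold in ERRα-null muscle (0.781 to 1.03; log2 −0.16 ± 0.09, limma adjusted p = 0.489). Mfn2 lay at −0.06 and −0.09 and Yme1l1 at −0.09 and −0.11, in the same order. Opa1 had the smallest p of the averaged exercise effect, at 0.912-fold (0.837 to 0.992; log2 −0.13 ± 0.06, unadjusted p = 0.0346, limma adjusted p = 0.183).

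Mff had the largest exercise value, 1.18-fold in wild type (0.977 to 1.43; log2 0.24 ± 0.13, limma adjusted p = 0.385) and 1.10-fold in ERRα-null muscle (0.911 to 1.33). In wild type all 3 exercised arrays were above the 3 sedentary ones, and groups did not overlap, in either direction, for 21% of all genes. The value rests on exercised wild type replicate 1, and without that array it was 0.09 (adjusted p = 0.757). Dnm1l (0.03 and −0.01), Fis1 (0.02 and 0.05) and Oma1 (0.01 and −0.12) overlapped between states in each genotype. No member had an interaction of genotype and exercise that passed (limma, 0 of 8, where 0.00751% of all genes were called, and 0 of 8 at an unadjusted p under 0.05, where 5.12% had one). Their interaction values lay between −0.21 (Mfn1) and 0.03 (Fis1).

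The replicate error differed among the 8 genes. The pooled SD within groups was 0.08 for Mfn2 and Yme1l1, 0.09 for Opa1 and Dnm1l, 0.11 for Mfn1, 0.12 for Fis1, 0.15 for Oma1 and 0.17 for Mff (log2, 8 degrees of freedom). Over the 12 arrays Mfn1 spanned 0.93, and Mff 0.77, while the other 6 genes spanned 0.34 to 0.45.

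Other genes that act around fusion and fission were taken from 5 lists with 68 entries, of which 62 were tested. The lists were chosen with earlier results of these data known, so their counts beside those of all genes are a description only. Averaged over states 5 of the 62 were called lower and 2 higher in ERRα-null muscle, where 0.999% and 0.428% of all genes were. The median of the 62 was −0.09. In the single states limma called 0 of 62, at rest and after exercise alike, where 0.0827% and 0.376% of all genes were called. An unadjusted p under 0.05 was found for 16 of the 62 at rest and 26 after exercise, against 8.22% and 10.4% of all genes. The cristae and MICOS list, whose proteins shape the inner membrane and tie it to the outer one, held 4 of the 5 lower genes among its 12 members and had a median of −0.23. The other was Akap1, an outer-membrane anchor of protein kinase A, among 15 fission adaptors and regulators (median −0.05). The list of fusion helpers and inner-membrane proteases, which also holds Lonp1, Clpp, Letm1 and Higd2a, had no called member of 15 and a median of −0.18. Transport genes had none of 7 (median −0.03) and mitophagy genes 1 of 13, higher (median −0.01).

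Immt, the mitofilin that scaffolds the MICOS complex, ran from 10.38 to 10.54 on wild-type arrays and from 10.01 to 10.30 on ERRα-null arrays, without overlap (averaged 0.793-fold, log2 −0.33 ± 0.05, limma adjusted p = 0.00818). Samm50, which builds barrel proteins into the outer membrane, ran from 9.60 to 9.88 and from 9.21 to 9.51, also without overlap (0.769-fold, −0.38 ± 0.07, limma adjusted p = 0.0175). The MICOS subunit Chchd3 fell by 0.28 (limma adjusted p = 0.0247) and Chchd10, an intermembrane-space protein, fell by 0.25 (limma adjusted p = 0.0217). Chchd3, Chchd10 and Akap1 overlapped between genotypes. Of the 12 genes of the cristae and MICOS list, 10 lay below wild type on average. Leaving out the 3 arrays of female profile, Immt lay at −0.35 (adjusted p = 0.14) and Samm50 at −0.42 (adjusted p = 0.168), and Samm50 did not pass without sedentary wild type replicate 1 or 2 (−0.36 and −0.37, adjusted p = 0.0519 and 0.0568). Chchd10 lost its call without any 1 of 6 arrays (sedentary or exercised wild type replicates 1 and 2, exercised ERRα-null replicates 2 and 3), with values of −0.26 to −0.23. Chchd3 lost it without any 1 array other than sedentary wild type or ERRα-null replicate 3, with values of −0.29 to −0.26, and Akap1 (−0.30, limma adjusted p = 0.0478) without any 1 other than sedentary wild type replicate 3 or sedentary ERRα-null replicate 2, with values of −0.32 to −0.27. With the slow fibre score Chchd3, Chchd10 and Akap1 did not pass (adjusted p = 0.0615, 0.0657 and 0.0638), nor did they without the arrays of female profile together (0.314, 0.281 and 0.264). Akap1 lost its call under 18 of 24 alternatives, among them the replicate block over all arrays (adjusted p = 0.0717), no filter on dim genes (0.0727) and eBayes without trend (0.07). Without trend Chchd3 (0.0521) and Chchd10 (0.0707) lost theirs too.

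Of the higher genes, Bcl2l13, an outer-membrane receptor for mitophagy, ran from 8.28 to 8.50 on wild-type and from 8.59 to 8.86 on ERRα-null arrays, without overlap (1.32-fold, log2 0.40 ± 0.06, limma adjusted p = 0.00921). It did not pass when the 3 arrays of female profile were left out (0.35, adjusted p = 0.231) or with the slow fibre score (0.37, adjusted p = 0.0639). Ppp3ca, the catalytic subunit of calcineurin, a phosphatase that acts on Dnm1l among other substrates, was higher by 0.25 ± 0.05 (1.19-fold, limma adjusted p = 0.0285), with overlap. It lost the call without any 1 of 7 arrays, namely sedentary wild type replicates 1 and 2, sedentary ERRα-null replicates 2 and 3, exercised wild type replicate 1 and exercised ERRα-null replicates 2 and 3, with values of 0.22 to 0.26. Ppp3ca also lost it with the slow fibre score (0.21, adjusted p = 0.168), with the liver, adipocyte and B cell scores (0.21, 0.0842), without the arrays of female profile (0.23, 0.31) and without trend (0.0704).

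**Figure D3:**
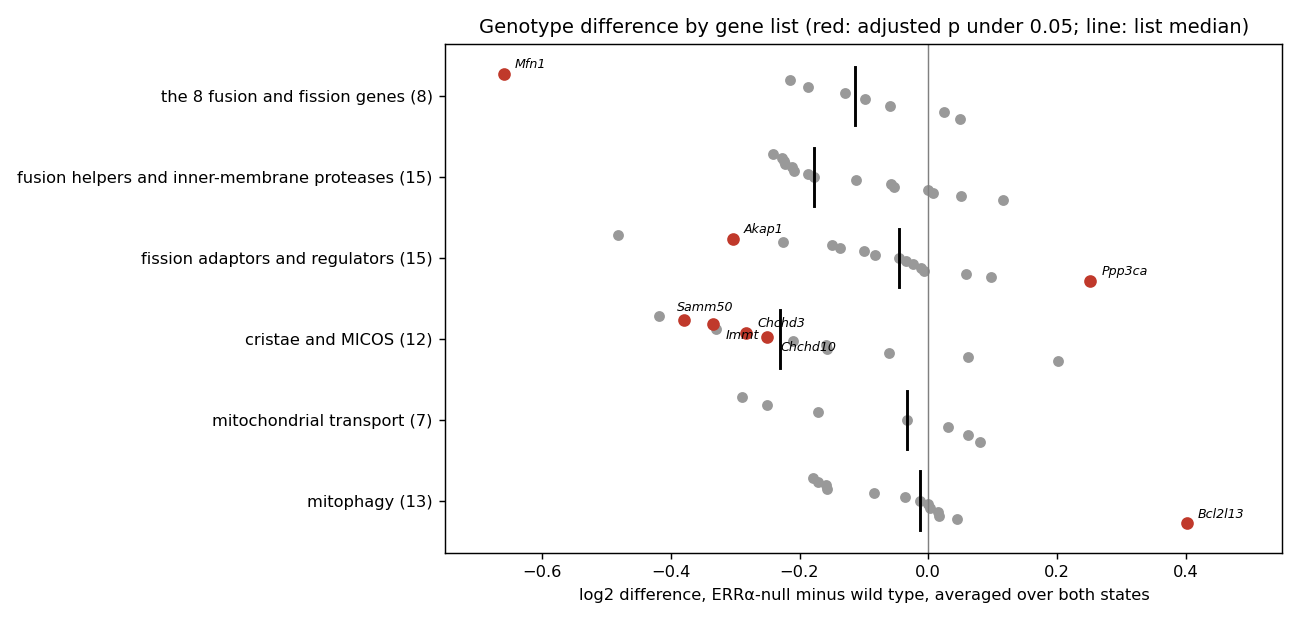
Genotype difference (log2, ERRα-null minus wild type, averaged over both states) of the 8 fusion and fission genes and of 62 further genes in 5 lists, each point a gene, red where the adjusted p is under 0.05 and with a line at the list median. The list medians lie between −0.23 for cristae and MICOS and −0.01 for mitophagy, and Mfn1 at −0.66 is lower than every other gene shown.

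For exercise, 3 of the 62 list genes were called lower averaged over genotypes and 0 higher, where 3.43% and 3.14% of all genes were. Gdap1, an outer-membrane protein with a part in fission, ran from 6.68 to 7.53 on sedentary and from 6.02 to 6.91 on exercised arrays, with overlap (0.589-fold, log2 −0.76 ± 0.16, limma adjusted p = 0.0123). Miga1, a partner of the mitofusins, fell by 0.32 (± 0.07, limma adjusted p = 0.023) and Mtus1, a microtubule-associated protein, by 0.31 (± 0.05, limma adjusted p = 0.00367). Mtus1 was also the 1 list gene called in the wild-type contrast, where 1.21% of all genes were called lower (−0.33, limma adjusted p = 0.0316). With the mean of its probesets it lay at −0.16 averaged (adjusted p = 0.158) and −0.15 in wild type (adjusted p = 0.45), and in wild type it lost the call without any sedentary wild-type replicate, exercised wild type replicate 1 or 2, or exercised ERRα-null replicate 3 (−0.34 to −0.28). Miga1 lost its call without sedentary wild type replicate 2 or 3, exercised wild type replicate 1 or 2, or exercised ERRα-null replicate 3 (−0.32 to −0.29). In wild type Mtus1 also lost its call on the compared arrays alone, with the replicate number as block (adjusted p = 0.156) or without it (0.0916). None of the averaged exercise calls of Gdap1, Miga1 and Mtus1 held with the liver, adipocyte and B cell scores as covariates (−0.72, −0.48 and −0.48, adjusted p = 0.232, 0.149 and 0.0639). The same was so without the arrays of female profile (−0.65, −0.41 and −0.31, adjusted p = 0.202, 0.0537 and 0.0797), and for Gdap1 with that profile as covariate (−0.68, adjusted p = 0.108).

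The genes whose centred log2 values were most like those of a member over the 12 arrays were found by the root mean square difference. For Mfn1 they were Sod2, the mitochondrial superoxide dismutase (0.10), Rcan2, a regulator of calcineurin (0.11), and Cox4i1 of cytochrome c oxidase (0.12), where the median over all genes was 0.38. For Mfn2 they were Cs, the citrate synthase that opens the tricarboxylic acid cycle (0.05), Brap (0.05) and Tbl2 (0.06), against a median of 0.19. For Opa1 they were Fsd2 (0.06), Mfn2 (0.07) and Ei24 (0.07), and for Dnm1l Nck1 (0.05), Tomm70a of the outer-membrane import machinery (0.05) and Ogdh of the tricarboxylic acid cycle (0.05). The values of all genes share the same arrays and normalization, and likeness is given as a description only.

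**Figure D4:**
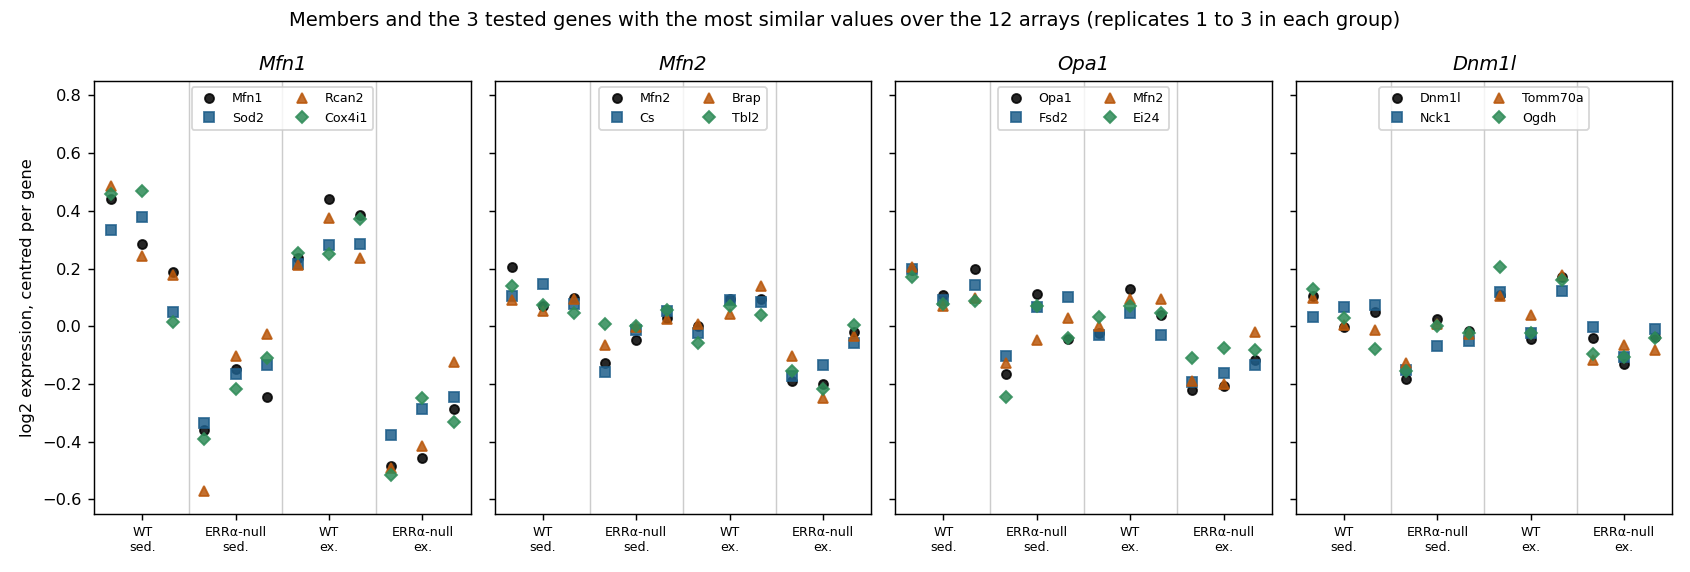
Log2 expression centred per gene for Mfn1, Mfn2, Opa1 and Dnm1l, each with its 3 most similar tested genes, on replicates 1 to 3 of each group. Sod2, Rcan2 and Cox4i1 lie above 0 on the wild-type arrays and below 0 on the ERRα-null arrays, as Mfn1 does, and the genes beside Dnm1l stay within 0.21 of 0.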

How the data were processed

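RNA of 12 gastrocnemius samples was measured on Affymetrix Mouse Gene 2.0 ST arrays. The deposited values are log2 expression values. The authors' tools, per the submitters' processing notes, were RMA, Transcriptome Analysis Console and Affymetrix Expression Console, in no stated order. RMA corrects background, gives the arrays a common distribution and summarises probes, which compresses changes of dim transcripts. Their versions, and a build, were not found in the labels used here. Arrays have no read depth, and their number limits the precision.

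Of 41345 probesets, 23521 carry 1 symbol, 1814 several and 16010 none in the platform table. Symbols were updated through gene IDs to RefSeq (23328 matched). The 40% of genes with the lowest mean (log2 under 5.32) were not tested. Groups came from the sample titles. Limma 3.58.1 in R 4.3.3 fitted 4 group means to 12 arrays (8 residual degrees of freedom) with eBayes and an intensity trend. P-values are two-sided and Benjamini-Hochberg adjusted over all 13308 genes in each of 7 comparisons, and calls are at an adjusted p under 0.05. Errors after ± are model standard errors and intervals are at 95%. The fit was checked on simulated arrays.

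Members and lists were chosen with earlier results of these data known. Named genes are the 8 members, list genes called in a genotype or exercise contrast (up to 6 a list), and 3 most similar genes for 4 members, with predicted loci left out. Equal replicate numbers correlated above 0.1 in every pair only between the exercised groups (deviations from group means, r of 0.174 to 0.312). Between the exercised groups arrays of unlike number correlated from −0.225 to 0.0273, below each of these values. Over all pairs of groups arrays of unlike number correlated from −0.561 to 0.63, with both extremes between the sedentary groups. Whether the numbers pair the samples was not tested. The values reported are from the fit without the block, and the block changed no call of the 8 genes. Over all 18 pairs r ran from −0.278 to 0.347. Protein sequences were not used here.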

Additional observations from a re-analysis of the deposited data

How the results depend on the processing

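Each value was recomputed under up to 26 alternatives (24 for averages and the interaction). Of 1408 recomputed values of the 8 genes, 89 changed sign, none of them called, and 7 changed their call, 6 of Mfn1 and 1 of Mfn2. At rest, where 0 of the 8 were called, Mfn1 alone passed (1 of 8) with robust eBayes (adjusted p = 0.036), the mean of probesets per gene (0.0496, where its own value is unchanged and the genes tested differ), array weights (−0.52, 0.0256) and liver, adipocyte and B cell scores as covariates (−0.62, 0.0299). Over all 26 alternatives its value at rest ran from −0.69 to −0.49, and it stayed uncalled without each array in turn (adjusted p from 0.0516 to 0.18). Without the arrays of female profile the calls of Mfn1 after exercise and on average were lost (−0.82 and −0.69). In that fit exercised ERRα-null muscle has 1 array. With the slow fibre score as covariate 2 passed on average (Mfn1 and Mfn2). The causes of these changes in call were not tested. Blocking by replicate number across all 12 arrays, Mfn1 lay at −0.76 after exercise (adjusted p = 0.0311), at −0.66 on average (0.00716) and at −0.55 at rest (0.0955), and on the compared arrays alone at rest 0.649. The block changed no call of the 8 genes, and between the exercised groups alone Mfn2 and Opa1 had adjusted p = 0.219 and 0.221 with it. Calls of Akap1, of Mtus1 in wild type and of Esrra at rest were lost under a block. Over all genes the calls under that block were 3 against 11 at rest, 23 against 50 after exercise and 160 against 190 on average. Fitting only the arrays compared gave 4 calls at rest, 5 after exercise, 232 for exercise in wild type and 62 in ERRα-null muscle without the block, and 1, 73, 143 and 0 with it. Calls over all genes moved further between settings: from 1 to 53 at rest, 2 to 161 after exercise, 6 to 363 for genotype on average, 120 to 546 for exercise in wild type, 0 to 268 in ERRα-null muscle, 135 to 1269 for exercise on average and 0 to 6 for the interaction, the highest of each but the interaction with array weights. After exercise the count was 3 without exercised wild type replicate 1 and 2 without exercised ERRα-null replicate 3. For the 10 other genes called from the lists, 83 of 266 recomputed values lost the call and 0 changed sign.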
